A study of Mus musculus with 4 samples.

Results

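The hypoxia and glycolysis genes described here are 10 genes, Hilpda, Vegfa, Slc2a1, Pgk1, Ldha, Bnip3, Ndrg1, Ankrd37, Egln3 and Pdk1, taken by name from the 31053 genes of the single-cell RNA-seq (scRNA-seq) count matrices. All 10 had a row in each of the 4 matrices. They were described in mouse prostate epithelium sorted as live EPCAM+ cells, from 3 runs of adult prostate and from 1 library of embryonic urogenital sinus (UGS) explants, all on the ICR (CD-1) background. Adult cells came from P2-Runx1:RFP mice older than 8 weeks, in which the proximal P2 promoter of Runx1 drives a red fluorescent protein (RFP). RFP+ and RFP- cells were sorted separately from pooled lobes, the ventral (VP), the anterior (AP) and the dorsolateral (DLP), from intact mice in every run and from mice castrated for over 4 weeks in runs 1 and 2. The castrated lobes of run 1 were pooled and gave too few cells to be used here. The UGS was taken at E15.5 (day 0) and explants grown with 10 µM dihydrotestosterone, an androgen, were collected at days 1, 3 and 6. Every day was 1 pool of explants, and no reporter is given for them.

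Hypoxia-inducible factor (HIF) is a transcription factor whose alpha subunits are marked for destruction by oxygen-dependent prolyl hydroxylases. When oxygen falls, or when other signals stabilise HIF, it binds a short DNA core (ACGTG or GCGTG) and raises a shared set of genes. Several of the 10 genes serve the uptake of glucose (Slc2a1, the glucose transporter GLUT1) and its breakdown to lactate (Pgk1, phosphoglycerate kinase, and Ldha, lactate dehydrogenase A). Pdk1 is a kinase that inhibits pyruvate dehydrogenase, Bnip3 acts in the removal of mitochondria, Vegfa drives vessel growth, Hilpda holds back lipolysis at lipid droplets, and Egln3 is a HIF prolyl hydroxylase that is itself a HIF target. Ndrg1 is a stress and differentiation gene, and Ankrd37 encodes an ankyrin repeat protein and is a known HIF target. The prostate epithelium holds basal cells (keratins 5 and 14) and secretory luminal cells, and the luminal cells depend on androgens.

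The genes lie apart in the genome (GRCm38 build, GENCODE annotation). Hilpda is at chr6:29272488-29275446, Slc2a1 at chr4:119108711-119137983, Pgk1 at chrX:106187100-106203699 and Pdk1 at chr2:71873224-71903858, all on the plus strand. Ldha (chr7:46841475-46855627, plus strand) and Bnip3 (chr7:138890836-138909519, minus strand) share a chromosome. Vegfa (chr17:46016993-46032369), Ndrg1 (chr15:66929318-66969640), Ankrd37 (chr8:45996902-46005707) and Egln3 (chr12:54178981-54203860) are on the minus strand.

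RefSeq promoter sequences (GRCm38.p6, 250 bases before to 50 after the start) were matched by symbol for 9 of the 10 genes, all but Ndrg1. Across all 32851 promoters of that table, 43.8% held ACGTG or GCGTG on either strand, and 3.86% held 4 or more matches. All 9 genes had a match in at least 1 of their entries. Ldha (the first of its 2 entries, the second held 2) held 7 matches, Bnip3 5 and Ankrd37 4. Pgk1, Slc2a1 and the first entries of Vegfa and Pdk1 held 2 each (the second entries of the last pair held 0), and Egln3 held 1. Hilpda has 2 overlapping entries, the first with 1 match and the second with 3, of which 1 is ACGTG. Promoters are printed for Ldha and Bnip3, which carried most matches, for Pgk1 and Egln3, which had the highest level and the largest day 6 to day 0 ratio in explant culture, and for Hilpda, which differed from them there. Capitals mark ACGTG and GCGTG read on either strand (also CACGT and CACGC), overlaps included, and each sequence is written 5′ to 3′ on the strand of its gene. A match is a description of these letters only.
Ldha, chr7:46845554-46845853, plus strand: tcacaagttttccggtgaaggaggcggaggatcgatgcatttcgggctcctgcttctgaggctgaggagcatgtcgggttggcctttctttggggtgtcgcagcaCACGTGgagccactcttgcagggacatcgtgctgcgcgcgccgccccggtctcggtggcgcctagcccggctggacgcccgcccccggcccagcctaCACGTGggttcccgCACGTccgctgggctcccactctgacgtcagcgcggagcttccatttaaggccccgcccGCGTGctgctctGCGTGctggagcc
Bnip3, chr7:138909457-138909756, minus strand: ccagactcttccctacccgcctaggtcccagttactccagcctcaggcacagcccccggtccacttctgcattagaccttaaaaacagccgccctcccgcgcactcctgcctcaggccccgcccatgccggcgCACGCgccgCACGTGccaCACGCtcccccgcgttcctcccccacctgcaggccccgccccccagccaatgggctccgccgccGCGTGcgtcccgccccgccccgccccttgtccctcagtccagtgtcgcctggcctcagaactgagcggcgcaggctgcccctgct
Pgk1, chrX:106186850-106187149, plus strand: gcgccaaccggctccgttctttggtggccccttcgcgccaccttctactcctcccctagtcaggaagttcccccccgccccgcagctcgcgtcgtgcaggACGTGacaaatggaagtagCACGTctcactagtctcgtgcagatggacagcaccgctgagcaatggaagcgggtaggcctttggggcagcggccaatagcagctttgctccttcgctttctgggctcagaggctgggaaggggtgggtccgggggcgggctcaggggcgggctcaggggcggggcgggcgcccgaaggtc
Egln3, chr12:54203825-54204124, minus strand: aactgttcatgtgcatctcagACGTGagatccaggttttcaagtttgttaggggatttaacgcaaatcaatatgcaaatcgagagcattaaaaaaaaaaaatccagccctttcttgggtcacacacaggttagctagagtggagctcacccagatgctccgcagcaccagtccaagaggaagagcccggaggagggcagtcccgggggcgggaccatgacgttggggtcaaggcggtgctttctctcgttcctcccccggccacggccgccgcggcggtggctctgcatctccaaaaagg
Hilpda, first entry, chr6:29272238-29272537, plus strand: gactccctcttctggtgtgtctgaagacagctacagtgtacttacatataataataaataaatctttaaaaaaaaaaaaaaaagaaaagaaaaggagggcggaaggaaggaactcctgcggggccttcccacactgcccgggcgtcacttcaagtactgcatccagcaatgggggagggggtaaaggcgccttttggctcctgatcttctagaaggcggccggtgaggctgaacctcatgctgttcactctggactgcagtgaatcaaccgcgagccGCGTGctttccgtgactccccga
Hilpda, second entry, chr6:29272376-29272675, plus strand: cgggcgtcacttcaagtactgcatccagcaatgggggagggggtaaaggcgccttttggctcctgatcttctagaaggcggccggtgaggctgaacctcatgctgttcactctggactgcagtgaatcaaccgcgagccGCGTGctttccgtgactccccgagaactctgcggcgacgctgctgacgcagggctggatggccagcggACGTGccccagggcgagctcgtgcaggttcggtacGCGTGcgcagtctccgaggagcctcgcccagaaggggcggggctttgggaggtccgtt

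The matrices held 35051876, 86381807 and 40087244 unique molecular identifiers (UMIs) in adult runs 1, 2 and 3 and 121090404 in the explant library. After filtering and assignment to 1 sample barcode, 824, 2194 and 1673 adult cells and 5198 explant cells remained, with medians of 9750.0 to 14784.5 UMIs per cell. Only 5 cell barcodes were shared between libraries, of 9889 assigned cells. Cells were named from marker genes after clustering without the 10 genes and without the wider pathway genes. Basal-like and luminal-like sums carried the markers of their names: Krt5, Krt14 and 5 further basal markers together reached 8783 to 14766 UMIs per 1000000 UMIs of the sum (CPM) in intact basal-like sums of 10 or more cells, against 22.8 to 2868 CPM in luminal-like sums. Hematopoietic markers summed to 0.0 to 296 CPM in the same sums, with Ptprc at 5.39 CPM or less. Endothelial markers summed to 0.0 to 37.4 CPM, with Cldn5 at 1.40 CPM or less. Fibroblast markers summed to 2734 to 7419 CPM in the basal-like and 5.72 to 217 CPM in the luminal-like sums. Whether basal-like cells or admixed fibroblasts gave them was not tested. Intact luminal-like cells of the VP and the DLP RFP+ cells of run 3 were deep, with medians of 41340 to 57772 UMIs, except for 15487 in VP RFP- cells of run 3, where the mitochondrial share was also the lowest at 0.35%.

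In UGS explants, most of the 10 genes stood higher after 1 day of culture than in the freshly taken tissue. Values are CPM of the summed UMIs of prostatic-like cells (464, 441, 933 and 1965 cells at days 0, 1, 3 and 6), with exact 95% Poisson intervals that cover counting error only. With 1 pool per day there is no replicate and no test, so a difference was counted where it passed 1.5-fold and the intervals were apart. Between day 0 and day 1, 8 of the 10 genes were higher by this rule and 0 were lower, beside 5.02% of all 12381 genes higher and 5.1% lower. The median gene differed by a ratio of 0.969. The paper set apart an explant cluster tied to hypoxia and stress terms from its developing prostatic epithelium. Here the clusters were made without the 10 genes and the wider pathway genes among the variable genes. Any other genes tied to hypoxia stayed in, and no cluster was named for hypoxia or stress. Where the cells of the paper's cluster fell was not tested, so the prostatic-like sums may not match the paper's prostatic cells.

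**Figure D1:**
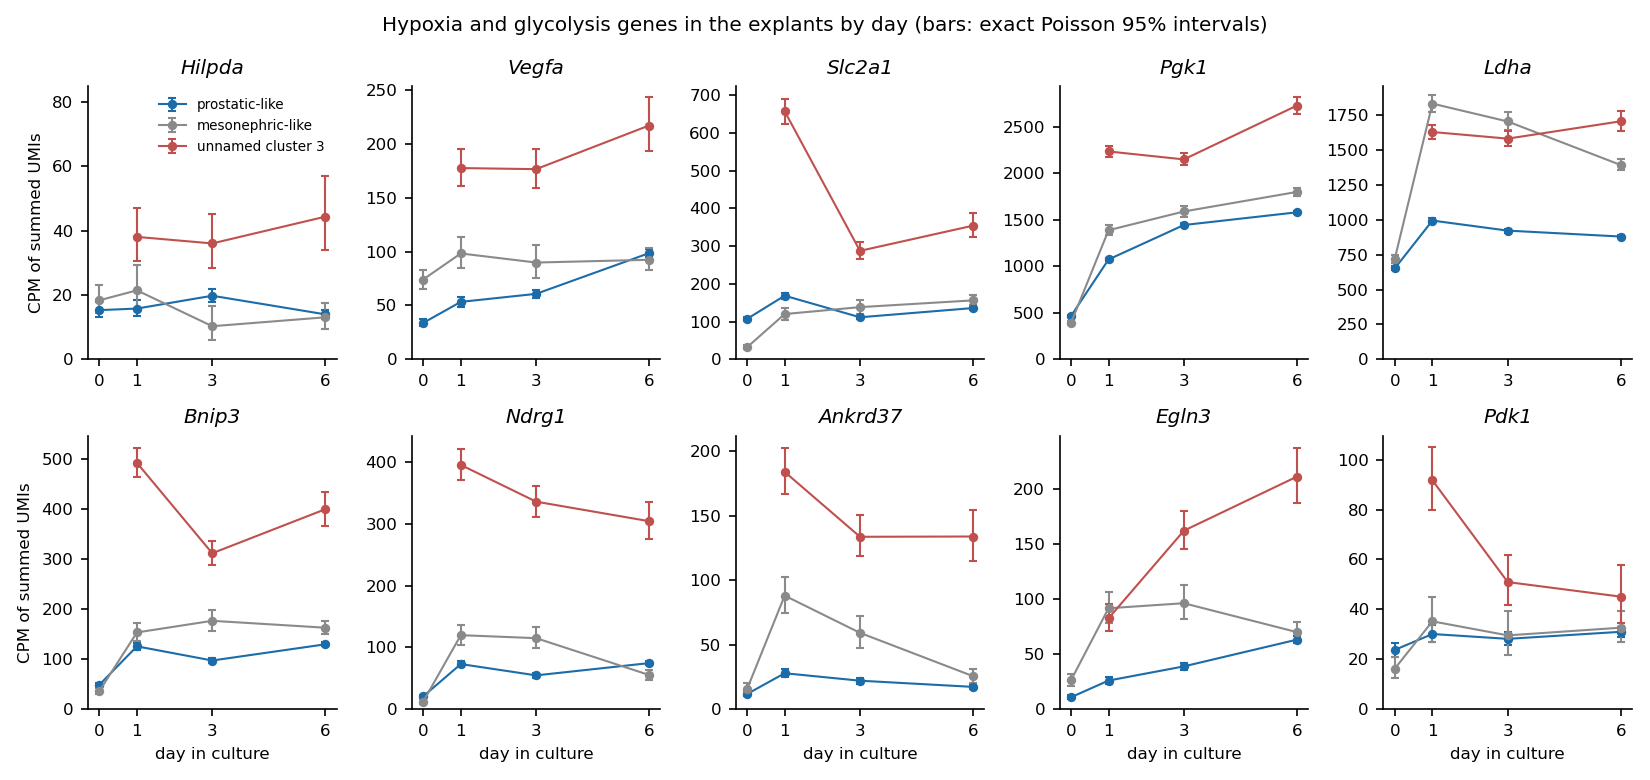
Levels of the 10 genes (CPM of summed UMIs, linear axes from 0) against day in culture, 1 panel per gene, for prostatic-like (blue), mesonephric-like (grey) and unnamed cluster 3 cells (red, from day 1), each point 1 pool with its exact 95% Poisson interval. The blue line is more than 1.5-fold higher at day 1 than at day 0 for 8 of the 10 genes, but not for Hilpda (15.3 and 15.8 CPM) or Pdk1 (23.7 and 30.1 CPM).

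The glucose uptake and glycolysis genes were the most abundant. Pgk1 measured 463, 1072, 1442 and 1579 CPM at days 0, 1, 3 and 6, and the day 1 to day 0 ratio was 2.32. Ldha measured 651, 994, 922 and 880 CPM, with a first-day ratio of 1.53. Pgk1 was thus highest at day 6 and Ldha at day 1. Slc2a1 was at 107, 168, 111 and 135.7 CPM, so its first-day difference (1.58-fold) was followed by a lower day 3, at 0.661 of day 1. Pdk1 stayed between 23.7 and 31.0 CPM, and no step of it passed 1.5-fold.

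Among the genes with smaller counts, Ndrg1 had the largest first-day ratio, 3.56, with 20.5, 73.0, 54.7 and 74.5 CPM at the 4 days. Bnip3 measured 48.5, 126, 97.2 and 130 CPM, a first-day ratio of 2.59. Both were lower at day 3 than at days 1 and 6, by less than 1.5-fold. Ankrd37 went from 11.6 to 27.8 CPM and then to 22.0 and 17.2 CPM, and like Ldha it was lower at each later day.

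Egln3 and Vegfa were highest at day 6. Egln3, the prolyl hydroxylase, measured 10.7, 26.0, 38.9 and 63.2 CPM, and Vegfa measured 33.8, 53.4, 60.8 and 98.7 CPM. These were the 2 members counted as higher at day 6 than at day 3, with ratios of 1.63 and 1.62, where 3.42% of 13054 genes were higher and 4.06% lower. Between days 1 and 3, 0 members were higher and 1, Slc2a1, was lower, beside 3.69% and 7.72% of genes, but both Slc2a1 (ratio 0.661) and Egln3 (1.497) lay next to the threshold. With TMM-scaled sizes (a scaling against a few dominant transcripts), with sizes without the 50 most abundant genes or with clusters from another numerical kernel the count turned to 1 higher, Egln3 (1.606, 1.526 and 1.5004), and 0 lower, and with thinned cells or the mean CPM of single cells to 2 higher, Egln3 and Pgk1, and 0 lower. Over the whole culture, day 6 against day 0, 5 members were higher (Egln3 5.89-fold, Ndrg1 3.63-fold, Pgk1 3.41-fold, Vegfa 2.92-fold and Bnip3 2.67-fold) and 0 lower, beside 9.75% and 17.8% of 13150 genes. The day 0 sum is shared by both comparisons with it. The comparison of day 6 with day 0 is between different clusters. Of the 464 day 0 cells 461 were of cluster 2, and all 1965 day 6 cells were of clusters 0, 1 and 4. Day and cluster thus cannot be told apart in that comparison. Cluster 2 also held 389 of 441 cells at day 1 but 31 of 933 at day 3, where 445 were of cluster 0 and 371 of cluster 1. Between days 1 and 3, day and cluster can thus largely not be told apart either.

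Hilpda differed from the other members. It measured 15.3, 15.8, 19.8 and 14.0 CPM, with intervals of 13.1 to 17.7 at day 0 and 12.7 to 15.4 at day 6 that overlap. The day 6 to day 0 ratio was 0.914 with a counting interval of 0.766 to 1.095.

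A list of 10 immediate early and heat shock genes, which tissue dissociation induces, summed to 11405, 12013, 9363 and 6746 CPM over the same days. In the same prostatic-like sums, markers of urothelium summed to 672, 595, 263 and 192 CPM, those of mesonephric cells to 518, 559.8, 345 and 152 CPM and those of mesenchyme to 28.8 to 43.4 CPM. The median mitochondrial share was 2.52% to 3.30%, and the part of any of these in the differences was not tested. Day 0 and day 1 cells came mostly from the same cluster (cluster 2, 461 and 389 cells), and within it Ndrg1 measured 20.4 and 74.7 CPM and Pgk1 454 and 1027 CPM. With every cell thinned to 3000 UMIs, 5 members passed the rule at day 1 and 0 at day 6 against day 3. Few cells had under 7500 UMIs. Among these the day 3 to day 1 ratio of Slc2a1 was 1.88, from 18 and 10 cells. The day 6 to day 3 ratio of Vegfa was 0.849, from 48 and 18 cells. Each was in the opposite direction, on a small part of the cells.

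The wider pathway list held 54 genes in 4 roles. These were HIF subunits and regulators, glucose uptake and glycolysis, other hypoxia-induced genes, and the pyruvate dehydrogenase complex with its kinases and a phosphatase. In the first-day comparison 53 genes of the list had enough UMIs. Of these, 19 were higher and 1 lower at day 1, beside 5.02% and 5.1% of all genes. Glycolysis gave 10 of 19 and other hypoxia-induced genes 8 of 17, against 1 of 9 HIF subunits and regulators (Egln1). Car9, a membrane carbonic anhydrase and a classical HIF target, had 25 UMIs at day 1 and 2 at day 0, a ratio of 14.2 with a counting interval of 3.55 to 124. Car12, another membrane carbonic anhydrase, was 5.25-fold and Ero1l, an oxidase of protein folding, 4.85-fold higher. Pdp1, a pyruvate dehydrogenase phosphatase, was the 1 lower gene, at 0.536 of day 0.

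By day 6, 24 of 53 pathway genes were higher and 4 lower than at day 0, beside 9.75% and 17.8% of all genes. Glycolysis gave 13 of 19 and other hypoxia-induced genes 10 of 17. Car9 (18.4-fold, counting interval 4.94 to 154), Car12 (13.8-fold) and the glucose transporter gene Slc2a3 (6.11-fold) had the largest ratios. Pdp1 (0.245), Hif3a (0.404), which encodes a further HIF alpha subunit, and Vhl (0.551), the ubiquitin ligase subunit that targets HIF alpha, were the smallest. From day 1 to day 3 only 3 of 53 were higher and 2 lower, beside 3.69% and 7.72% of all genes. The higher ones were Slc16a1 (a monocarboxylate transporter, 1.81), Eno1 (enolase, 1.60) and Car12 (1.53). Hif3a (0.498) and Cited2 (an inhibitor of HIF, 0.630) were lower. From day 3 to day 6 only 2 of 53 were higher and 3 lower, beside 3.42% and 4.06% of all genes. P4ha2 (a collagen prolyl hydroxylase, 1.73) and Car12 (1.71) were higher, and Vhl (0.644), Ddit4 (0.661) and Pfkfb4 (0.664) lower.

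Levels varied among the explant clusters of the same day. At day 6, cluster 1 (Krt5, Krt14 and Ndufa4l2 among its 10 leading genes) held 586 cells, cluster 0 (Fmo2 and Wif1 among its own) 1222 cells and cluster 4 (histone genes and Top2a) 157 cells. Ndrg1 was at 191 CPM in cluster 1, 41.6 CPM in cluster 0 and 6.6 CPM in cluster 4. Vegfa followed the same order with 222, 64.0 and 24.5 CPM, and so did Bnip3 with 259, 93.7 and 50.4 CPM. Hilpda differed little between them, with 14.3, 14.2 and 11.97 CPM.

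An explant cluster that stayed unnamed (cluster 3, 372 cells, with Psca, Krt4, Ly6d, Nupr1, Spink5 and Krt6a among its 10 leading genes, and not counted as prostatic-like) held the highest levels of most members. Slc2a1 reached 657, 287 and 354 CPM there at days 1, 3 and 6, and Ndrg1 396, 336 and 305 CPM. Ankrd37 measured 184, 134 and 134 CPM and Hilpda 38.1, 36.0 and 44.3 CPM, each above the prostatic-like sums of the same days. At day 0 the cluster had 9 cells, too few for a sum. Some of its leading genes (Psca, Krt4 and Ly6d) are also known from prostate luminal cells, and Psca and Krt4 led cluster 2 of the adult data described below. With them added, 9 members were higher at day 1 than at day 0, Pdk1 being the further one (1.71-fold). The first-day difference was also seen in mesonephric-like cells, where Ldha went from 721 to 1833 CPM and Ndrg1 from 11.96 to 120 CPM. Urothelium-like cells had 31, 60 and 119 cells at days 1, 3 and 6 and stood lower, with Ndrg1 at 4.6, 19.4 and 31.6 CPM.

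The genes varied together from cell to cell. Every cell was thinned to 3000 UMIs, and for each gene the cells of a day were ordered by the summed UMIs of the other 9, so that no gene entered its own ordering. The cells were then cut into 4 groups of equal size, and the lowest and the highest (490 cells each at day 6) are ranges of 1 summed count, not cell types, and all values are descriptions of cells from 1 pool. At day 6, Ndrg1 was at 2.04 CPM (interval 0.42 to 5.96, 3 UMIs) in the lowest group and 304 CPM (277 to 334) in the highest. Egln3 was at 6.80 and 171 CPM, Bnip3 at 19.7 and 367 CPM and Vegfa at 27.2 and 292 CPM. The abundant genes differed less, with Pgk1 at 492 and 3437 CPM and Ldha at 404 and 1495 CPM.

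The ordering separated Pgk1, Ldha and Bnip3 less at day 0. The ratio of highest to lowest group was 1.92 for Pgk1 and 1.56 for Ldha at day 0, against 6.99 and 3.70 at day 6. For Bnip3 it was 2.25 at day 0, 13.8 at day 1 and 18.6 at day 6. Hilpda again differed, with ratios of 2.75, 1.00, 1.20 and 1.48 and overlapping intervals at each day. In the adult populations the groups held few UMIs of most members, and for Pgk1 and Ldha, the most abundant, the ratios lay between 0.50 and 1.80 in the AP sums, while VP RFP+ luminal-like sums ranged from 0.69 to 6.00.

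**Figure D2:**
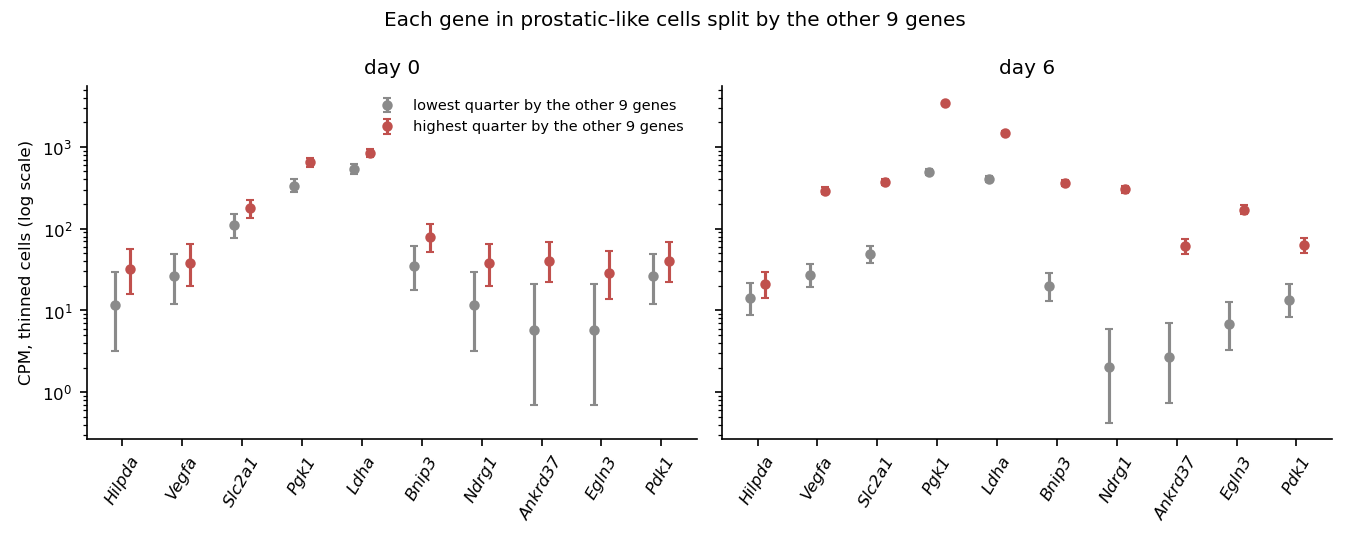
Level of each gene (CPM, log axis, exact 95% Poisson intervals) in the groups of prostatic-like cells lowest (grey) and highest (red) in the other 9 genes, at day 0 (left) and day 6 (right), with cells thinned to 3000 UMIs. At day 6 the 2 groups lie apart for every gene but Hilpda (14.3 and 21.1 CPM), and for Pgk1, Ldha and Bnip3 they lie closer together at day 0.

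Genes of the wider list followed the summed members. Between the highest and lowest group by all 10 genes, 6 of 26 measured pathway genes were higher at day 0, 18 of 30 at day 1, 23 of 38 at day 3 and 28 of 44 at day 6, beside 1.29%, 2.11%, 2.38% and 5.2% of all genes. Lower pathway genes numbered 0, 0, 1 and 1, beside 0.311%, 1.7%, 2.73% and 10.3%. At day 6 the lactate exporter gene Slc16a3 had 294 against 7 UMIs, and Ero1l was at 431 against 22.4 CPM. Ldhb, the other lactate dehydrogenase gene, went the other way, at 58.5 against 140 CPM. The highest group at day 6 held 53.1% cells of cluster 1, against 7.96% of the lowest, and its median mitochondrial share was lower (2.47% against 3.72%), as was its median depth (11468 against 14687 UMIs). The part of cluster, depth, mitochondrial share and the wider range of the summed members at later days was not tested.

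In the adult prostate, UMIs were summed per run, lobe, RFP gate and compartment, and the 3 runs served as replicates in edgeR's quasi-likelihood test with Benjamini-Hochberg adjustment over 11934 genes. Each run pooled several mice, the sums of 1 run come from the same pool, and p-values measure the spread between such pools. Adult levels below are CPM scaled by TMM, the factor of the test that corrects for a few dominant transcripts. These factors were 0.477 to 0.632 in VP luminal-like sums and above 0.87 in all other sums but that of DLP RFP+ luminal-like cells (0.620), which had an intact sum only in run 3.

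**Figure D3:**
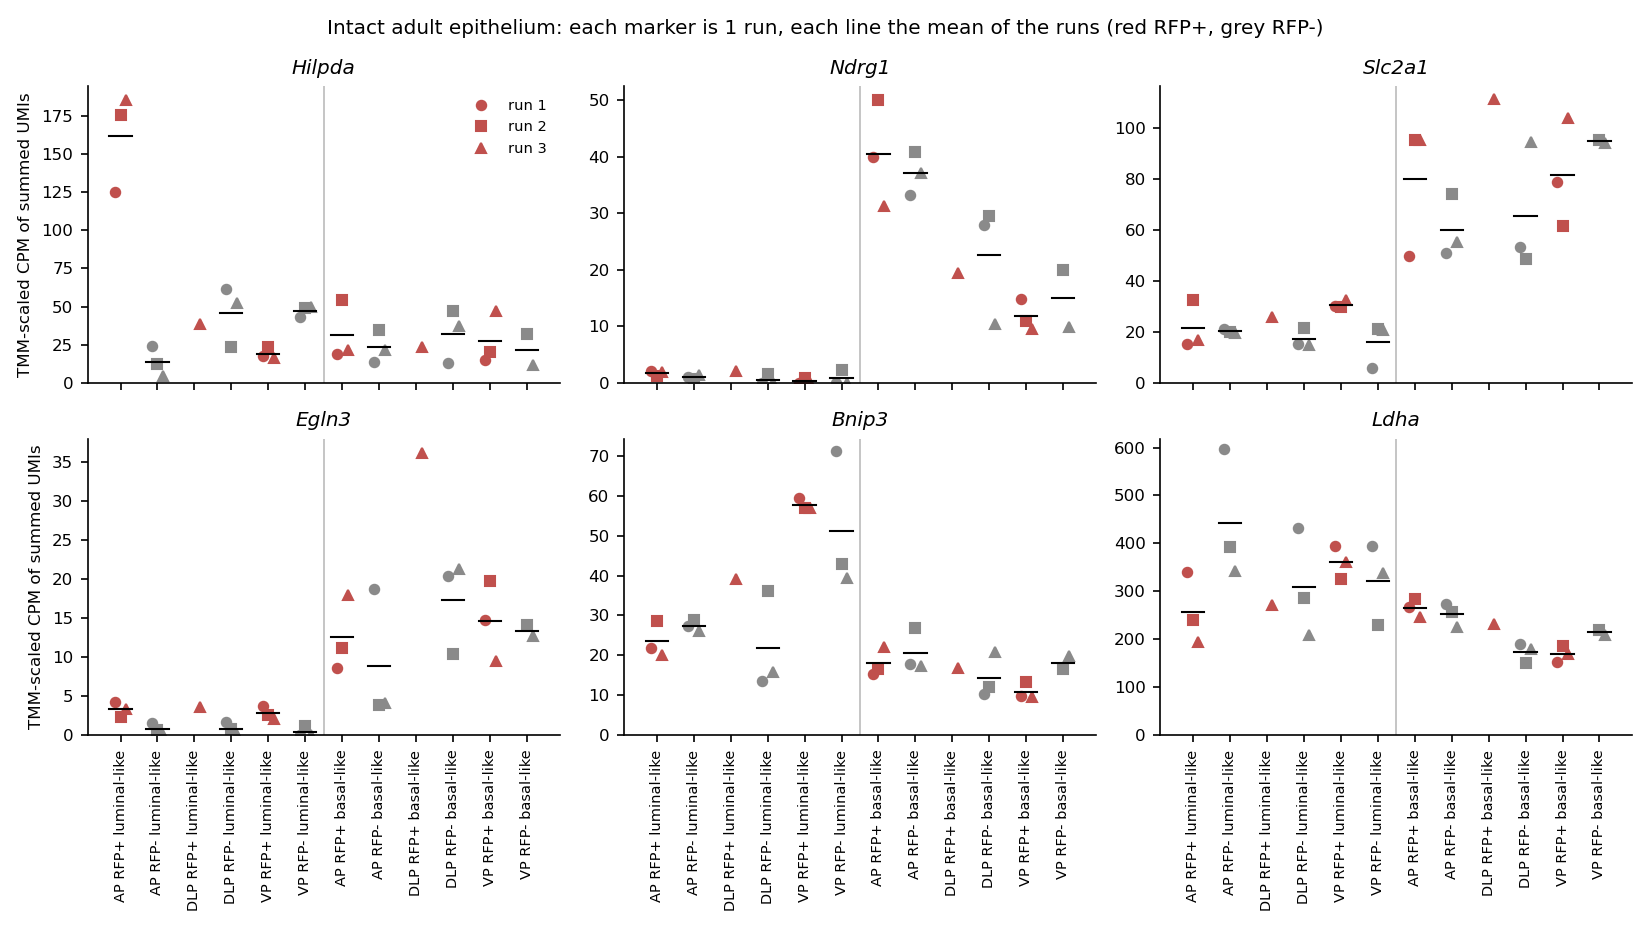
Levels of the 6 genes with a call in the tests, in intact adult sums (TMM-scaled CPM, linear axes from 0) by lobe, RFP gate (red RFP+, grey RFP-) and compartment, with 1 marker per run and a line at the mean. Hilpda is highest in the 3 AP RFP+ luminal-like sums (125 to 186 CPM), and Ndrg1 is higher in every basal-like sum (9.4 CPM or more) than in every luminal-like sum (2.2 CPM or less).

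Hilpda, which codes for an inhibitor of lipolysis, was highest in the RFP+ luminal-like cells of the AP. It measured 125, 176 and 186 CPM in runs 1, 2 and 3 in AP RFP+ cells and 24.3, 11.9 and 4.1 CPM in AP RFP- cells. The 2 groups did not overlap, and the log2 fold change was 3.46 (SE 0.45, adjusted p = 4.2e-06). Besides Hilpda, Egln3 was higher (log2 fold change 1.99, SE 0.72, adjusted p = 0.049976) and Ldha lower (-0.78, SE 0.25, adjusted p = 0.026), so that 3 of the 10 genes passed beside 20.1% of all genes. The Egln3 values were small, 4.3, 2.3 and 3.4 CPM in RFP+ against 1.6, 0.6 and 0.0 CPM in RFP- cells, from 21, 4 and 7 against 3, 2 and 0 UMIs. Its call was lost without any 1 of the runs (adjusted p 0.066 to 0.35), and over all alternatives its adjusted p was 0.022 to 0.42. Ldha measured 339, 240 and 194 CPM in RFP+ and 597, 392 and 342 CPM in RFP- cells, groups that did not overlap, with the lowest RFP- value just above the highest RFP+ value. Before TMM scaling they overlapped (465, 252 and 220 against 730.0, 389 and 354 CPM). The Ldha call was lost without run 2 or run 3, and over all alternatives its adjusted p was 0.0011 to 0.26.

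Of 49 pathway genes tested, 8 were higher and 2 lower in AP RFP+ than RFP- luminal-like cells, a share near the 20.1% of all genes. Epas1, which encodes HIF-2 alpha, had a log2 fold change of 3.30 (SE 0.66), Bhlhe40, a circadian and hypoxia-regulated repressor, 3.06 (SE 0.49) and Pfkp, a phosphofructokinase, 2.46 (SE 0.49). Ddit4, an inhibitor of mTOR signalling (-1.73, SE 0.40), and Cited2 (-1.40, SE 0.30) were lower, with edgeR adjusted p-values of 5.7e-05 to 0.0024 for these 5 genes.

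The clusters behind the 2 AP gates differed. RFP+ luminal-like cells were 81.0% to 88.3% cells of cluster 2 (led by Psca and Krt4), while RFP- cells were 82.9% to 93.3% cells of cluster 3 (led by Tgm4). Over all intact cells of a cluster, with no scaling by TMM, Hilpda was at 206, 260 and 236 CPM in cluster 2 in the 3 runs and at 19.5, 11.4 and 12.2 CPM in cluster 3. Cluster 8, led by Msmb, made up 30.0% to 33.3% of VP RFP- luminal-like cells and held 71.2 and 74.4 CPM in runs 2 and 3. Cluster 1, the main VP cluster, held 10.3, 12.5 and 8.9 CPM. In run 2, mesonephric-like cells (20 cells) had 408 CPM of Hilpda, against 27.8 CPM in run 3 (50 cells). The 10 immediate early and heat shock genes summed to 14175, 6459 and 8150 CPM in AP RFP+ and 6866, 4087 and 5339 CPM in AP RFP- luminal-like cells, higher in RFP+ in each run, and their part in the Hilpda difference was not tested.

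The AP pattern of Hilpda was not found in the VP or in basal-like cells. In VP luminal-like cells Hilpda measured 17.8, 23.4 and 15.9 CPM in RFP+ and 42.8, 49.0 and 49.6 CPM in RFP- cells (10 cells in run 1), a log2 fold change of -1.31 (SE 0.45) that missed the threshold (adjusted p = 0.42, edgeR). None of the 10 genes passed in that comparison, where 0.327% of genes did. By edgeR the unadjusted p was 0.0076 for Hilpda and 0.037 for Slc2a1, whose adjusted p was 0.75. DESeq2 also called 0 members there. The difference of the RFP effect on Hilpda between the lobes, VP minus AP, was -4.76 on the log2 scale (SE 0.64, adjusted p = 5.5e-05), and it passed in each of the 12 alternatives run (highest adjusted p 0.030). Hilpda was the 1 member to pass beside 3.86% of genes, together with 2 pathway genes, Pfkp (-3.24) and Bhlhe40 (-3.03). VP RFP+ luminal-like cells were 86.3% to 94.5% cells of cluster 1 and 2.75% to 11.8% of cluster 2. The RFP gates of the 2 lobes thus held different clusters, and the part of this in the difference was not tested.

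Among basal-like cells of the AP, Hilpda measured 18.5, 54.4 and 21.6 CPM in RFP+ and 13.6, 34.5 and 21.5 CPM in RFP- cells, groups that overlapped. By edgeR no gene of 11934 passed in this comparison (0.0%), with 229 at an unadjusted p under 0.05, 0 of them members, and 1 gene, no member, by DESeq2. The RFP effect on Hilpda in the AP, basal-like minus luminal-like, was -3.01 on the log2 scale (SE 0.64, adjusted p = 0.0054), and Hilpda was the 1 member to pass beside 5.22% of genes. This call was lost without run 2 or run 3, where the adjusted p reached 0.21, the highest over all alternatives (lowest 1.1e-10), and with compartments called from marker shares. Bhlhe40 (-2.89), Epas1 (-2.71) and Pfkp (-2.28) passed in the same direction.

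Basal-like and luminal-like cells differed in 4 to 5 members. Ndrg1 measured 40.0, 50.1 and 31.4 CPM in AP RFP+ basal-like cells and 2.0, 1.1 and 1.9 CPM in luminal-like cells of the same gate. The groups were far apart, with a log2 fold change of 4.43 (SE 0.43, adjusted p = 1.3e-08). Slc2a1 was at 49.6, 95.2 and 95.1 CPM in basal-like and 15.2, 32.6 and 16.8 CPM in luminal-like cells (1.92, SE 0.30, adjusted p = 1.4e-05). Egln3 was at 8.6, 11.1 and 18.0 against 4.3, 2.3 and 3.4 CPM (1.78, SE 0.45, adjusted p = 0.0037). The Egln3 call was lost without run 2 or run 3, with an adjusted p of up to 0.089, and over all alternatives it was 0.00028 to 0.089. Hilpda went the other way (-2.41, SE 0.41, adjusted p = 5.3e-05), so that 3 members were higher and 1 lower in basal-like cells, beside 28.1% of all genes in either direction. The immediate early and heat shock genes summed to 7647 to 22874 CPM in the intact basal-like and 2260 to 14175 CPM in the luminal-like sums of all lobes, and their part was not tested.

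In the VP RFP+ gate the same contrast rested on few basal-like cells (11, 34 and 10 in runs 1, 2 and 3). A cluster named endothelial took 13, 43 and 39 cells of this gate. Over all gates it had 365 cells, 84.4% of them with Epcam UMIs. With clusters from another numerical kernel the endothelial cluster had 161 cells, and the run 2 basal-like sum of this gate had 77. The basal-like sums here thus depend on the clustering. Ndrg1 measured 14.8, 10.99 and 9.4 CPM in basal-like cells (3, 5 and 1 UMIs) and 0.0, 0.9 and 0.0 CPM in luminal-like cells (0, 4 and 0 UMIs). Its log2 fold change was 4.63 (SE 0.92, adjusted p = 0.00032). Egln3 was at 14.8, 19.8 and 9.4 against 3.7, 2.6 and 2.0 CPM (2.63, SE 0.68, adjusted p = 0.0043). Slc2a1 was at 78.9, 61.5 and 104 against 30.0, 29.5 and 32.3 CPM (1.31, SE 0.35, adjusted p = 0.0063). Each of these genes was higher in all 3 basal-like sums, with no overlap.

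Bnip3 and Ldha were lower in the VP basal-like sums after TMM scaling, so that 5 of the 10 genes passed beside 27.8% of all genes. Bnip3 was at 9.9, 13.2 and 9.4 against 59.4, 56.9 and 56.9 CPM (-2.30, SE 0.43, adjusted p = 0.00017), from 2, 6 and 1 UMIs in the basal-like sums, and it was also lower before scaling (15.96, 16.9 and 13.6 against 34.5, 30.2 and 28.5 CPM). Ldha was at 153, 187 and 170 against 394, 325 and 362 CPM (-1.08, SE 0.27, adjusted p = 0.0036), but before scaling its direction was the opposite, with 247, 240.0 and 245 CPM in basal-like and 229, 172 and 181 CPM in luminal-like cells. The calls of Egln3 and Ldha were lost without run 2 (adjusted p = 0.28 and 0.069) and that of Slc2a1 without run 3 (0.064), and with cells thinned to 3000 UMIs no member passed (Bnip3 had too few counts there to be tested). Over all alternatives the adjusted p was 1.1e-08 to 0.28 for Egln3, 0.00022 to 0.37 for Ldha and 0.00020 to 0.14 for Slc2a1. The median log2 fold change of all genes was -0.19, and the pathway counts were 12 higher and 10 lower of 49, beside 27.8% of all genes.

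Pathway genes in the AP numbered 13 higher and 3 lower of 49 in basal-like cells, beside 28.1% of all genes in either direction. Pdk4, a pyruvate dehydrogenase kinase, Car12 and Adm, the peptide hormone adrenomedullin, led in both lobes, with log2 fold changes of 4.34, 4.16 and 4.05 in the AP and 5.64, 4.96 and 5.06 in the VP. Pdk2 was lower in both (-1.70 and -2.17). Pkm (-0.82) and Tpi1 (-0.76), both of glycolysis, completed the lower AP genes, and Plod2 (-2.49) and Cited2 (-2.06) were the lowest VP genes. The basal-like to luminal-like log2 fold change of Bnip3, VP minus AP, was -1.91 (SE 0.52, adjusted p = 0.029), the 1 member to pass beside 5.06% of genes, and this call was lost without any 1 of the runs (0.12 to 0.24) and by DESeq2, over a range of 0.016 to 0.24 in all alternatives. With the run as a block, Hilpda (2.65, adjusted p = 0.046) and Ldha (-1.14, adjusted p = 0.0072) passed too, against 0.059 and 0.078 without it, and over all alternatives the adjusted p was 6.2e-05 to 0.45 for Hilpda and 0.0072 to 0.69 for Ldha. Vegfa passed in the AP basal to luminal contrast with the block (0.73, adjusted p = 0.0092), against 0.074 without it and up to 0.45 in other alternatives.

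**Figure D4:**
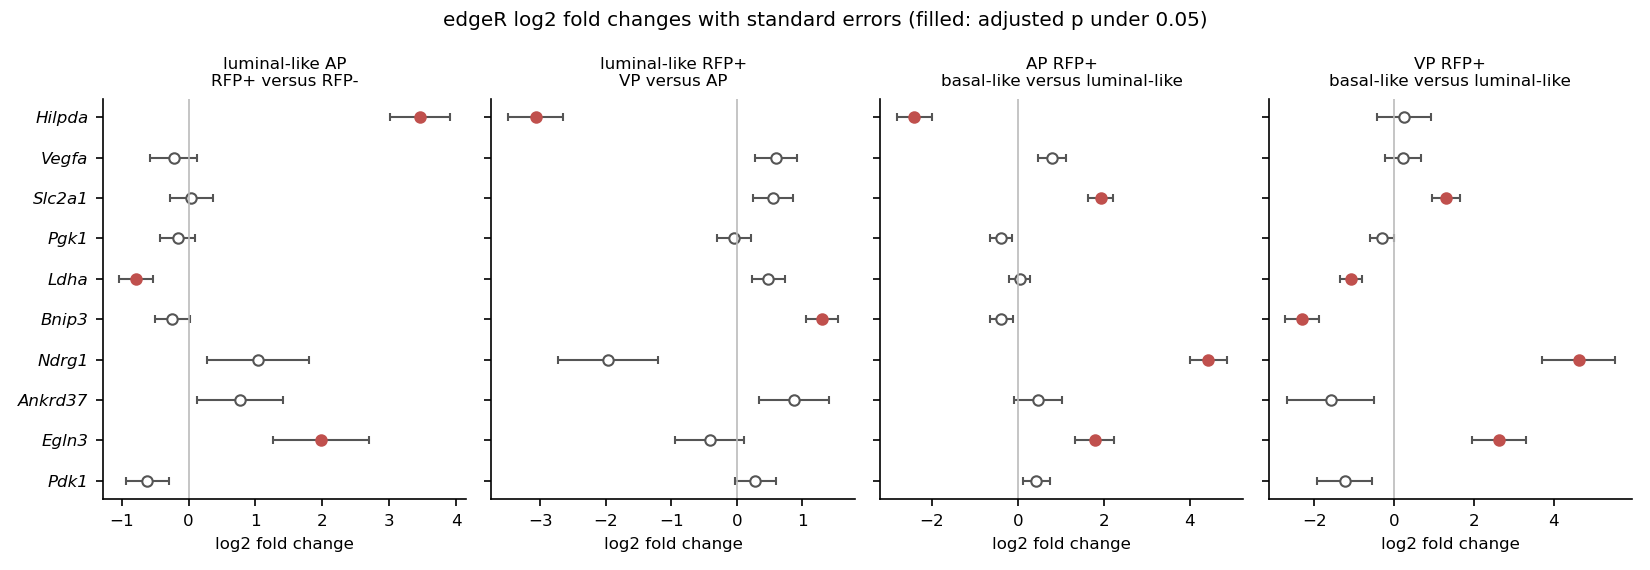
Log2 fold changes (x axes) of the 10 genes in 4 tested contrasts of intact adult sums, with standard errors as bars and points filled red where the edgeR adjusted p was under 0.05. Hilpda shows the largest change of RFP+ against RFP- AP luminal-like cells (3.46), and Ndrg1 the largest basal-like to luminal-like changes (4.43 and 4.63).

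Between lobes, RFP+ luminal-like cells of the VP had more Bnip3 and less Hilpda than those of the AP. Bnip3 measured 59.4, 56.9 and 56.9 CPM in the VP and 21.9, 28.6 and 20.1 CPM in the AP, a log2 fold change of 1.30 (SE 0.25, adjusted p = 0.00027). Before TMM scaling the same sums held 34.5, 30.2 and 28.5 CPM in the VP and 30.1, 29.9 and 22.8 CPM in the AP, which overlap. Over the alternatives run, none of which used unscaled library sizes, the log2 fold change was 1.18 to 1.45. Hilpda had a log2 fold change of -3.07 (SE 0.42, adjusted p = 5.0e-06). These were 2 of 10 members, beside 24.4% of genes. The AP RFP+ sums are shared with the comparison of RFP gates above. With the run as a block, Ldha (0.51, adjusted p = 0.025) and Ndrg1 (-2.03, adjusted p = 0.025) also passed, against 0.17 and 0.060 without it, and over all alternatives the adjusted p was 0.025 to 0.55 for Ldha and 0.016 to 0.77 for Ndrg1.

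In RFP- luminal-like cells, Hilpda stood higher in the VP than in the AP (1.69, SE 0.48, adjusted p = 0.018), the 1 member beside 12.8% of genes, and the call was lost without run 2 or run 3 and with thinned cells (adjusted p up to 0.24, lowest 2.7e-06 over all alternatives). Before TMM scaling the groups overlapped, with 27.0, 28.4 and 23.7 CPM in the VP and 29.7, 11.8 and 4.3 CPM in the AP. Bnip3 measured 71.3, 42.8 and 39.3 CPM in the VP and 27.4, 28.8 and 26.2 CPM in the AP (0.81, SE 0.28, adjusted p = 0.056), and with the run as a block the adjusted p was 0.034, with a range of 0.034 to 0.29 over the alternatives. In the DLP against the AP, 0 members passed beside 1.24% of genes. Hilpda was at 61.2, 23.1 and 52.2 CPM in the DLP (1.58, SE 0.47, adjusted p = 0.11), and with the run as a block its adjusted p was 0.036, over a range of 2.9e-05 to 1.0 in all alternatives. By edgeR the unadjusted p there was 0.0023 for Hilpda and 0.045 for Ldha, whose adjusted p was 0.48. DESeq2 called 1 of the 10 genes. By edgeR no gene passed between VP and AP RFP+ basal-like cells (0.0%), with 919 at an unadjusted p under 0.05, among them Ndrg1 (-1.76) and Ldha (-0.64), while DESeq2 called 11 genes, 0 of them members.

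Pathway genes that differed between the RFP+ luminal-like cells of the lobes numbered 9 higher and 4 lower of 49 in the VP (a share near the 24.4% of all genes), led by Plod2, a collagen-modifying enzyme (3.73), Hk2, hexokinase 2 (1.89), and Aldoc, aldolase C (1.60), with Pfkp (-2.51), Bhlhe40 (-2.34) and Hk1 (-1.33) at the other end. In RFP- cells the VP had 7 higher and 1 lower of 49, beside 12.8% of all genes in either direction. Hk2 (2.73), Plod2 (2.37) and Fam162a (1.27) led the higher genes, and the lower one was Pdha1, a subunit of pyruvate dehydrogenase (-0.75). Ldhb (-1.56) was the 1 pathway gene of 49 that passed between DLP and AP, beside 1.24% of all genes. Vegfa, Pgk1, Ankrd37 and Pdk1 passed in none of the tested contrasts without the block. Vegfa ranged from 10.3 to 42.0 CPM, Pgk1 from 73.8 to 271 CPM, Ankrd37 from 0.0 to 11.4 CPM and Pdk1 from 0.0 to 16.2 CPM over the intact sums.

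Ldha showed 2 further differences only with the run as a block. The RFP effect on Ldha was larger in the VP than in the AP luminal-like cells by 0.98 (adjusted p = 0.012), against 0.13 without the block and up to 0.74 in other alternatives. It was larger in AP basal-like than luminal-like cells by 0.87 (adjusted p = 0.022), against 0.18 without the block and up to 0.66 in other alternatives.

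Castrated and intact mice could be compared in run 2 alone, 1 pool each, so no test was possible and the values are plain CPM with the 1.5-fold rule. Hilpda was the member that differed in most luminal-like populations. In AP RFP+ cells it was at 184 CPM (308 UMIs) in intact and 72.8 CPM (249 UMIs) in castrated mice, a ratio of 0.394 (counting interval 0.332 to 0.468). In AP RFP- cells it went the other way, from 11.8 to 57.3 CPM (4.87-fold, 3.17 to 7.52). It was also higher after castration in VP RFP+ cells (12.4 to 83.7 CPM, 6.73-fold) and in DLP RFP- cells (20.3 to 51.1 CPM, 2.52-fold). Thus the 4 luminal-like populations spanned 11.8 to 184 CPM of Hilpda in intact and 51.1 to 83.7 CPM in castrated mice. In castrated DLP RFP+ cells, which have no intact partner in run 2, it was at 80.4 CPM.

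The VP values depend on the scale. The median gene of the VP RFP+ luminal-like comparison was 1.90-fold higher after castration, and with TMM-scaled sizes the Hilpda ratio was 3.44. The clusters also changed with castration. Intact AP RFP+, AP RFP- and VP RFP+ luminal-like cells were mostly of clusters 2, 3 and 1, while castrated AP cells were mostly of cluster 6 (led by Lpl and Clu) and castrated VP RFP+ cells of cluster 7 (led by Ang5 and Ang4). The part of these clusters in the differences was not tested.

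Slc2a1, the glucose transporter gene, was higher after castration in AP RFP+ luminal-like cells (34.1 to 61.9 CPM, 1.81-fold), in VP RFP+ luminal-like cells (15.7 to 42.7 CPM, 2.72-fold, and 1.39-fold with TMM-scaled sizes) and in VP RFP+ basal-like cells (79.1 to 174 CPM, 2.20-fold). Ndrg1, close to absent from intact luminal-like cells, had 2 UMIs in intact and 44 UMIs in castrated AP RFP+ luminal-like cells, a ratio of 10.7 with a counting interval of 2.80 to 91.4. In VP RFP+ basal-like cells it had 5 and 21 UMIs, a ratio of 3.86. Vegfa was 1.78-fold higher (50.7 to 90.5 CPM) and Pgk1 lower (182 to 89.6 CPM, ratio 0.492) in AP RFP+ basal-like cells, which were 90.4% cells of cluster 0 in intact and 94.0% of cluster 4 in castrated mice.

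By population, the members higher and lower after castration numbered 2 and 1 of 9 measured in AP RFP+ luminal-like cells (all genes 12.6% higher, 7.6% lower), 1 and 0 of 7 in AP RFP- (5.5% and 11.8%), 2 and 0 of 8 in VP RFP+ (54.9% and 1.87%) and 1 and 0 of 7 in DLP RFP- luminal-like cells (1.27% and 8.53%). In basal-like cells they numbered 1 and 1 of 10 in AP RFP+ (2.14% and 12.3%) and 2 and 0 of 7 in VP RFP+ (3.33% and 8.2%). In VP RFP+ luminal-like cells the share of members was under that of all genes, and the balance turned with the scale. With TMM-scaled sizes 1 member was higher (Hilpda) and 2 were lower (Vegfa, ratio 0.284, and Pgk1, 0.658), beside 1015 and 1138 of all 9689 genes. Without the 50 most abundant genes 1 member was higher and 5 were lower, beside 830 and 1371 of the 9689 genes. In plain CPM, Ldha, Bnip3, Ankrd37, Egln3 and Pdk1 passed in none of the 6 populations, and the Ldha ratios were 0.740 to 1.33. With cells thinned to 3000 UMIs, 1 of 6 measured members passed in AP RFP+ luminal-like cells. In AP RFP- and in DLP RFP- luminal-like cells 0 of 2 measured passed, and in VP RFP+ basal-like cells 0 of 4. The other members had too few UMIs there to pass.

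**Figure D5:**
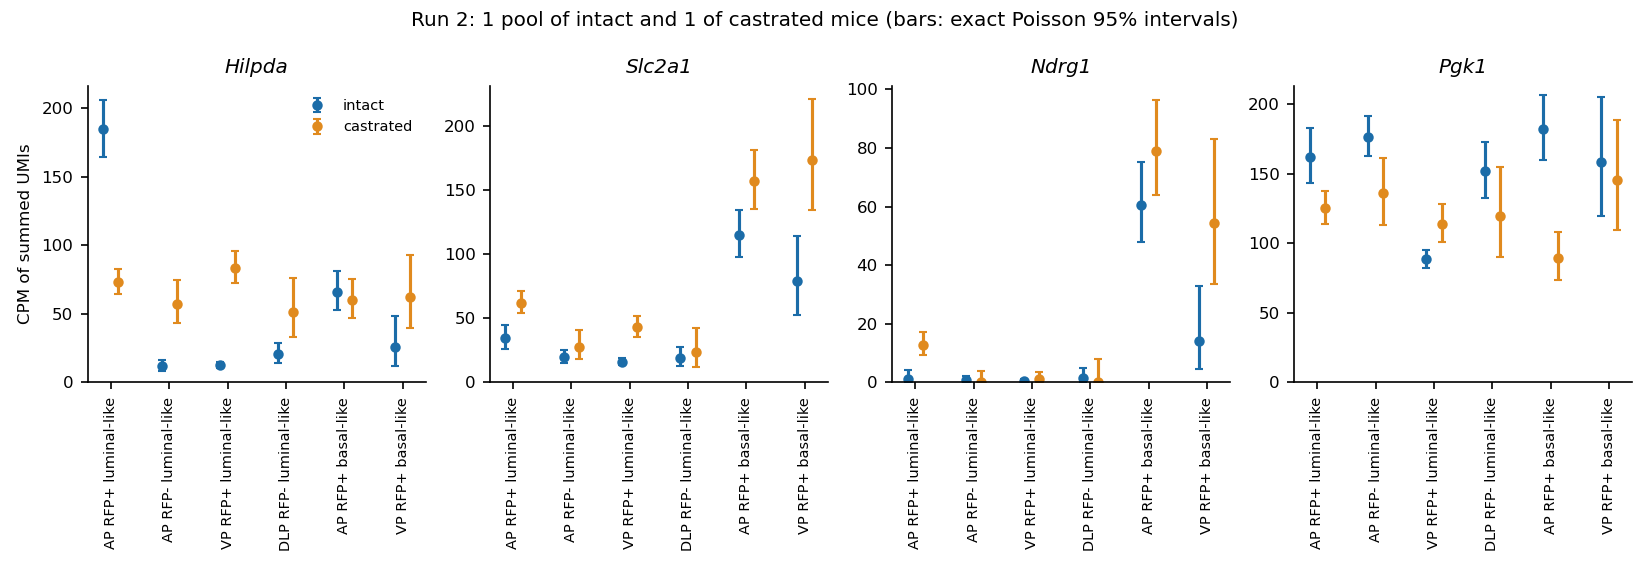
Levels of Hilpda, Slc2a1, Ndrg1 and Pgk1 in intact (blue) and castrated (orange) mice of run 2, in plain CPM on linear axes from 0 with exact 95% Poisson intervals, for the 6 populations with at least 10 cells on both sides, 1 pool on each side. Hilpda lies lower after castration in AP RFP+ luminal-like cells (184 to 72.8 CPM) and higher in AP RFP-, VP RFP+ and DLP RFP- luminal-like cells.

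Of the wider list, the largest ratios after castration belonged to different genes by population. In AP RFP+ luminal-like cells Aldoc was 5.02-fold and Hif1a, the HIF-1 alpha subunit, 1.90-fold higher, and Bhlhe40 was at 0.293 of intact cells. Cited2 and Ddit4 were lower in AP RFP- (0.377 and 0.383), VP RFP+ (0.363 and 0.516) and DLP RFP- (0.332, and 3 against 41 UMIs for Ddit4, ratio 0.231 with a counting interval of 0.0457 to 0.724) luminal-like cells. In VP RFP+ luminal-like cells 25 of 43 pathway genes were higher and 2 lower in plain CPM, beside 54.9% and 1.87% of all genes. Pdp1 (4.15), Vhl (3.53) and Epas1 (3.19) led the higher ones. With TMM-scaled sizes 2 pathway genes were higher and 11 lower, beside 1015 and 1138 of all 9689 genes. In basal-like cells Ddit4 was 4.55-fold higher in the AP and Cited2 2.55-fold higher in the VP, and Hk2 and Adm were higher in both (1.76 and 1.74 in the AP, 2.07 and 2.04 in the VP).

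The genes whose levels over the 40 adult sums were most like each member were sought among the 4840 genes whose mean level reached 20 CPM. The highest Pearson correlation of log2 CPM was 0.72 for Hilpda (with Cdh1), 0.83 for Vegfa (Hexim1), 0.94 for Slc2a1 (Sfr1), 0.77 for Pgk1 (Ssu72), 0.81 for Ldha (Wdr18) and 0.68 for Bnip3 (Asl). The sums share runs, depth and composition, and the correlations are descriptions. The other 4 members had a mean under 20 CPM and were not given a partner.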

How the data were processed

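The authors deposited raw UMI counts per gene and cell barcode for 3 adult runs and 1 explant library (10x Genomics 3′ v3), aligned to mm10 (GRCm38) with Cell Ranger 3.1.0, and MULTI-seq sample barcodes that assign cells to a lobe, RFP gate, treatment or day. Adult cells were kept at 750 to 7500 detected genes and under 10% mitochondrial counts, and explant cells at 1000 genes or more and under 7.5%. Cells with several sample barcodes were removed as doublets, and no other doublet caller was run. Cells were clustered with Seurat 5.3.0 (R 4.3.3) without the 10 genes and the 54 pathway genes among the variable genes, and named from fixed markers. Cluster names were rebuilt here and may differ from those of the study.

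Intact adult UMIs were summed per run, lobe, RFP gate and compartment (at least 10 cells), and all sums were fitted together with edgeR 4.0.16 (TMM, filterByExpr, quasi-likelihood test, Benjamini-Hochberg adjustment over 11934 genes, threshold 0.05). Sums of the same run come from the same pools of mice, so the run pairs them: their deviations from the group means correlated at 0.0597 to 0.534. The fit with run as a block was an alternative, as were DESeq2 1.42.0, other filters, scalings and cell sets, and leaving out each run. Explant days and castration had 1 pool on each side and were compared by exact 95% Poisson intervals and a 1.5-fold rule over genes with at least 20 UMIs in both sums together, without a test. Intervals cover counting error only. The tests were tested on simulated data before use.

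The members and gene lists were chosen with earlier results of these data known. The rule for naming took all 10 members in every comparison, but members that passed no threshold are mostly given by counts or ranges, and from the pathway list up to 3 genes at each end of those past the threshold. Sequences were copied from RefSeq promoters (GRCm38.p6), and positions from GENCODE.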

Additional observations from a re-analysis of the deposited data

Results flagged for a closer look

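For 2 members, in 3 comparisons, the effect of one contrast differed between 2 lobes or compartments by a test of the difference itself (edgeR's quasi-likelihood test with Benjamini-Hochberg adjustment over all genes). The RFP effect on Hilpda in luminal-like cells, VP minus AP, was -4.76 on the log2 scale, between gates that held different clusters in the 2 lobes. The RFP effect on Hilpda in the AP, basal-like minus luminal-like, was -3.01. The basal-like to luminal-like change of Bnip3 in RFP+ cells, VP minus AP, was -1.91. The first passed in every alternative run, the second was lost without run 2, without run 3 and with compartments from marker shares, and the last without any 1 of the runs, by DESeq2 and with library sizes taken without the 50 most abundant genes.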

How the results depend on the processing

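Of 213 alternative values of the 18 member fold changes that passed a test, 179 kept direction and call, 34 kept direction and lost the call, and 0 reversed. Of 240 alternative values of the 27 untested ratios past the rule, 197 kept both, 41 fell short, and 2 reversed, both among cells under 7500 UMIs (Slc2a1 at day 3 against day 1, 1.88, and Vegfa at day 6 against day 3, 0.849). The Slc2a1 value rested on 18 against 10 cells and the Vegfa value on 48 against 18 cells. The cause of these reversals was not tested.

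The counts of members that passed, by contrast, moved as follows. For AP luminal-like RFP+ against RFP- (3), the count was 1 to 2 without 1 run, 1 among cells under 7500 UMIs and 1 with compartments from marker shares. For VP luminal-like RFP (0) it was 1 with no low-count filter. For RFP- luminal-like VP against AP (1) it was 2 by DESeq2, 2 with the run as a block, 0 to 1 without 1 run and 0 thinned to 3000 UMIs. For RFP- DLP against AP (0) it was 1 by DESeq2, 1 with no filter and 1 with the block. For RFP+ luminal-like VP against AP (2) it was 4 with the block, 2 to 3 without 1 run and 1 thinned. For RFP+ basal-like VP against AP (0) it was 1 with clusters from another numerical kernel. For basal-like against luminal-like RFP+ cells it was 3 to 5 without 1 run and 5 with the block (Vegfa added) in the AP (4), and 3 to 5 without 1 run and 0 thinned in the VP (5). For the RFP effect VP minus AP (1) it was 2 with the block. For the RFP effect basal-like minus luminal-like (1) it was 2 with the block, 0 to 1 without 1 run and 0 with marker shares. For the compartment effect VP minus AP (1) it was 2 with no filter, 3 with the block, 0 without 1 run, 0 thinned and 2 with the other kernel. The run block changed no other member call.

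In the explants, day 1 against day 0 (8) gave 5 thinned, 5 at 2-fold and 6 by mean CPM of single cells. It gave 9 with all assigned cells and 9 with unnamed cluster 3 added. Day 6 against day 0 (5 higher) gave 7 with TMM-scaled sizes and 7 with all assigned cells. It gave 6 without the 50 most abundant genes, 6 by mean CPM of single cells and 6 with cluster 3 added. Day 3 against day 1 (0 higher, 1 lower) gave 2 higher thinned, 2 higher by mean CPM of single cells, 1 higher with TMM-scaled sizes, without the 50 most abundant genes, with the other kernel and under 7500 UMIs (0 lower in each of these), 0 at 2-fold, 2 lower with all assigned cells and 4 lower with unnamed cluster 3 added. Day 6 against day 3 (2 higher) gave 0 among cells under 7500 UMIs, 0 thinned, 0 at 2-fold, and 0 higher and 1 lower (Ankrd37) both with all assigned cells and with cluster 3 added. After castration, AP RFP+ luminal-like cells (3) gave 0 of 3 measured members under 7500 UMIs, 1 of 6 thinned, and 1 higher and 1 lower at 2-fold. AP RFP- (1) and DLP RFP- (1) each gave 0 of 2 measured members thinned. Members with too few UMIs could not pass in these settings. VP RFP+ (2 higher) gave 6 (1 higher, 5 lower) with library sizes without the 50 most abundant genes. It gave 1 higher and 2 lower with TMM-scaled sizes, and 2 higher and 1 lower with marker shares. AP RFP+ basal-like cells (2) gave 4 with TMM-scaled sizes, 1 under 7500 UMIs, 1 thinned, 1 at 2-fold and 4 with marker shares. VP RFP+ basal-like cells (2) gave 0 of 5 measured members under 7500 UMIs, 0 of 4 thinned and 1 with marker shares.

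The other kernel (the same class for 4423 of 4691 adult and 5189 of 5198 explant cells) and the addition of cluster 3 were chosen after seeing the data. VP basal-like sums of 10 to 34 cells and members with under 10 UMIs per sum limit the precision. Intact DLP RFP+ cells, whose barcode worked in run 3 only, entered no test.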
